A study of Homo sapiens with 4 samples.

Results

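FAIRE sites were examined around 10 core genes of the circadian clock, CLOCK, BMAL1 (ARNTL in older annotations), PER1, PER2, PER3, CRY1, CRY2, NR1D1, NR1D2 and DBP, in H295R/TR SF-1 cells. A site was counted for a gene when it overlapped the GENCODE gene body or the 50 kb on either side of it. By this rule 64 of the 34423 sites in cells with basal SF-1 expression and 57 of the 31219 sites in cells overexpressing SF-1 lay at the 10 genes, out of 20163 protein-coding genes in all. FAIRE-seq recovers DNA that is depleted of nucleosomes from formaldehyde-fixed chromatin and sequences it. H295R is a human adrenocortical tumour cell line, and the H295R/TR SF-1 subclone carries an added SF-1 gene that is switched on by doxycycline. SF-1, encoded by NR5A1, is a nuclear receptor of steroidogenic cells. Cells at basal SF-1 were compared with cells given doxycycline for 3 days. Both groups carried the inducible copy, and cells with doxycycline but without that copy were not analysed here, so doxycycline itself and raised SF-1 cannot be told apart.

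Each list came from 1 FAIRE library, so no test between the conditions exists, differences have no replicate check, and sequencing depth is unknown. The 95% intervals given for shares are exact binomial (Clopper-Pearson) intervals and describe counting error alone, and the sites of a library are no replicates of its condition. Where a list lacks a site, it was not called in that library, and the chromatin need not have been closed. The lists hold no peak height, since every site had the same score, so width and the place in the list are given in its stead. The place is the peak number as a percentage of the list's length, and the quantity behind the order is not stated. Of 8 genes known from steroidogenic adrenocortical cells, 4 had a site within 1 kb of an annotated start at basal SF-1, 6 with overexpression and 3 in both, beside 46.7%, 48.9% and 41.7% of all protein-coding genes. NR5A1 had one in the basal list alone, and HSD3B2 had none in either.

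In the mammalian clock, the CLOCK and BMAL1 proteins form a dimer that activates genes through E-boxes (CACGTG). Among its targets are the PER and CRY genes, whose proteins repress the dimer, and NR1D1 and NR1D2 (REV-ERB alpha and beta), which encode nuclear receptors that repress through ROR elements and compete there with the activating ROR receptors. DBP encodes a leucine zipper activator that binds D-boxes (TTATGTAA or TTACGTAA), as in PER genes. The adrenal cortex is a tissue with a known daily rhythm of steroid output. SF-1 binds as a monomer to an extended half-site (CAAGGTCA or CAAGGCCA). The last letters of the former, AGGTCA, are also the core of many ROR elements.

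The sequences below carry the clock motifs of the FAIRE sites at these genes. All were read from GRCh37 (hg19), and each is written 5′ to 3′ on the strand that is given. The first set holds the full ROR elements, which consist of an A/T-rich stretch followed by the ROR half-site TAGGTCA or TGGGTCA, and capitals mark the element.
BMAL1, 5′ UTR, chr11:13299354-13299382, plus strand: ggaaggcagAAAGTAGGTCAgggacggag
CRY1, intron 1, whole overexpression site, chr12:107421401-107421599, minus strand: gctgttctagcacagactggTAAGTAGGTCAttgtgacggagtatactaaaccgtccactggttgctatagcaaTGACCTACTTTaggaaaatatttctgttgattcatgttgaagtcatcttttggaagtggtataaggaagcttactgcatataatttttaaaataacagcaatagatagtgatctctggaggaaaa
NR1D2, intron 1, chr3:23987454-23987514, minus strand: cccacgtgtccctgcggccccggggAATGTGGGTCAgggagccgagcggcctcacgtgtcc
DBP, upstream of the start, chr19:49140945-49141005, minus strand: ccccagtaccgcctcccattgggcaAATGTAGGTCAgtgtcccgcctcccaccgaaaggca
DBP, upstream of the start, chr19:49140991-49141051, minus strand: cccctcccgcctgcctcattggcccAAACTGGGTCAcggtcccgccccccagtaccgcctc
In the CRY1 site the elements stand on opposite strands, so the downstream one is read in reverse in that line.

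The second set holds E-boxes and D-boxes of the sites at clock gene starts and in the first intron of NR1D1, and capitals mark every E-box and D-box in the stretch. The D-box TTATGTAA reads TTACATAA on its other strand, as in NR1D1 and NR1D2.
PER1, E-box upstream of the canonical start, chr17:8055865-8055920, minus strand: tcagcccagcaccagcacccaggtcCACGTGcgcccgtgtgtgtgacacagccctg
PER1, E-box at the distal start, chr17:8059832-8059887, minus strand: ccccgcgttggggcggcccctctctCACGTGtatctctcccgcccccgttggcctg
PER2, D-box, chr2:239197547-239197604, minus strand: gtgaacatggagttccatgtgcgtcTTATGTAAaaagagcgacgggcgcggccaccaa
PER3, E-box, chr1:7843956-7844011, plus strand: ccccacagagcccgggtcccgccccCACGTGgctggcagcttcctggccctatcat
PER3, D-box, chr1:7844149-7844206, plus strand: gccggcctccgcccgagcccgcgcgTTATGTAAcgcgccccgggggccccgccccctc
NR1D1, intron 1, pair of E-boxes, chr17:38255386-38255441, minus strand: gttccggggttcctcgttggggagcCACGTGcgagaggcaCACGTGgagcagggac
NR1D1, intron 1, D-box, chr17:38255593-38255650, minus strand: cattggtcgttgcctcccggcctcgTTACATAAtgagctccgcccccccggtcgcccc
NR1D2, intron 1, E-box, chr3:23987323-23987378, plus strand: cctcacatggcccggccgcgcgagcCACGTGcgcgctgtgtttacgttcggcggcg
NR1D2, intron 1, D-box, chr3:23987393-23987450, plus strand: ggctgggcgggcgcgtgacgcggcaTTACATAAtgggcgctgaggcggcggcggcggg
DBP, intron 2, E-box, chr19:49137928-49137983, minus strand: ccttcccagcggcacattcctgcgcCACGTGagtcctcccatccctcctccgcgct

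The third set holds the SF-1 half-sites, which were found at PER1 and CRY1 only among the 10 genes, with the half-site in capitals.
PER1, upstream of the gene, basal list only, chr17:8099504-8099561, plus strand: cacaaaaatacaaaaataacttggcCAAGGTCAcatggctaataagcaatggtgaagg
CRY1, intron 2, both lists, chr12:107411016-107411073, minus strand: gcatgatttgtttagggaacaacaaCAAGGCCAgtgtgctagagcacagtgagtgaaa

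Sites at the starts of the clock genes were called in both conditions. A promoter site was defined as one that overlaps the 1 kb on either side of any annotated transcript start of the gene. By this rule 9 of the 10 genes had a promoter site, the same 9 in either list, and CLOCK had none in either. Among all protein-coding genes 46.7% had a promoter site in the basal list, 48.9% in the overexpression list and 41.7% in both. The promoter sites formed 15 loci, each with a site in either list. The basal list counted 15 of them and the overexpression list 14, because a CRY2 site at 45881301 to 45881549 reached the 1 kb limit of an internal start and its overexpression counterpart at 45881251 to 45881499 did not. None of the 15 basal and 14 overexpression promoter sites was condition-only, which allows shares of up to 21.8% and 23.2%. Over all sites at protein-coding gene starts 21.5% were basal-only and 24.1% overexpression-only, so the basal limit holds the share over all such sites and the overexpression limit lies just below it.

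Of all clock sites, 16 of 64 were called only at basal SF-1 (25.0%, interval 15.0 to 37.4%) and 10 of 57 only with overexpression (17.5%, interval 8.75 to 29.9%). The share over all sites was 45.8% basal-only and 40.3% overexpression-only. Both intervals lie below the share over all sites, and several measures moved with this. Of the clock sites, 32 of 64 at basal SF-1 and 30 of 57 (52.6%) with overexpression lay within 1 kb of the start of some protein-coding gene, against 30.1% and 34.2% of all sites. Within that class 2 of 32 basal clock sites (6.25%, interval 0.766 to 20.8%) and 1 of 30 overexpression clock sites (3.33%, interval 0.0844 to 17.2%) were condition-only. Both intervals lie below the shares over all sites of the class given above. Away from starts 14 of 32 (43.8%) and 9 of 27 (33.3%) were condition-only, against 56.3% and 48.7%, and here the intervals of 26.4 to 62.3% and 16.5 to 54.0% hold the background. With each list limited to its first 50% by peak number, the clock shares became 44.4% (20 of 45) and 30.6% (11 of 36). Over all sites they were then 42.9% and 37.1%. The basal clock share thus came near that of all sites, and the overexpression share stayed below it by a smaller margin. No interval was computed for these shares. The part of promoter content and of place in the list was not tested.

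By position, all condition-only calls lay outside the clock gene starts. Of the sites in the gene body but not at a start, 8 of 15 were basal-only (53.3%, interval 26.6 to 78.7%) and 3 of 11 overexpression-only (27.3%, interval 6.02 to 61.0%). Both intervals hold the share over all sites away from starts, 56.3% and 48.7%. None of these sites touched an exon of any annotated transcript of its gene, so all of them were intronic. Of the sites outside the gene, 8 of 34 (23.5%, interval 10.7 to 41.2%) and 7 of 32 (21.9%, interval 9.28 to 40.0%) were condition-only. Many sites of the last kind belong to neighbours by position, since 16 in each list lay within 1 kb of the start of another protein-coding gene, where sites are condition-only less often. With the sites at clock promoters and in gene bodies, 20 basal and 19 overexpression clock sites lay so. With the sites of both lists merged where they overlap, 32 of the 58 loci away from clock gene starts were shared. The plot of sites along each gene shows shared sites at the starts, in the introns and beyond, and condition-only ones in the introns and beyond alone.

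**Figure D1:**
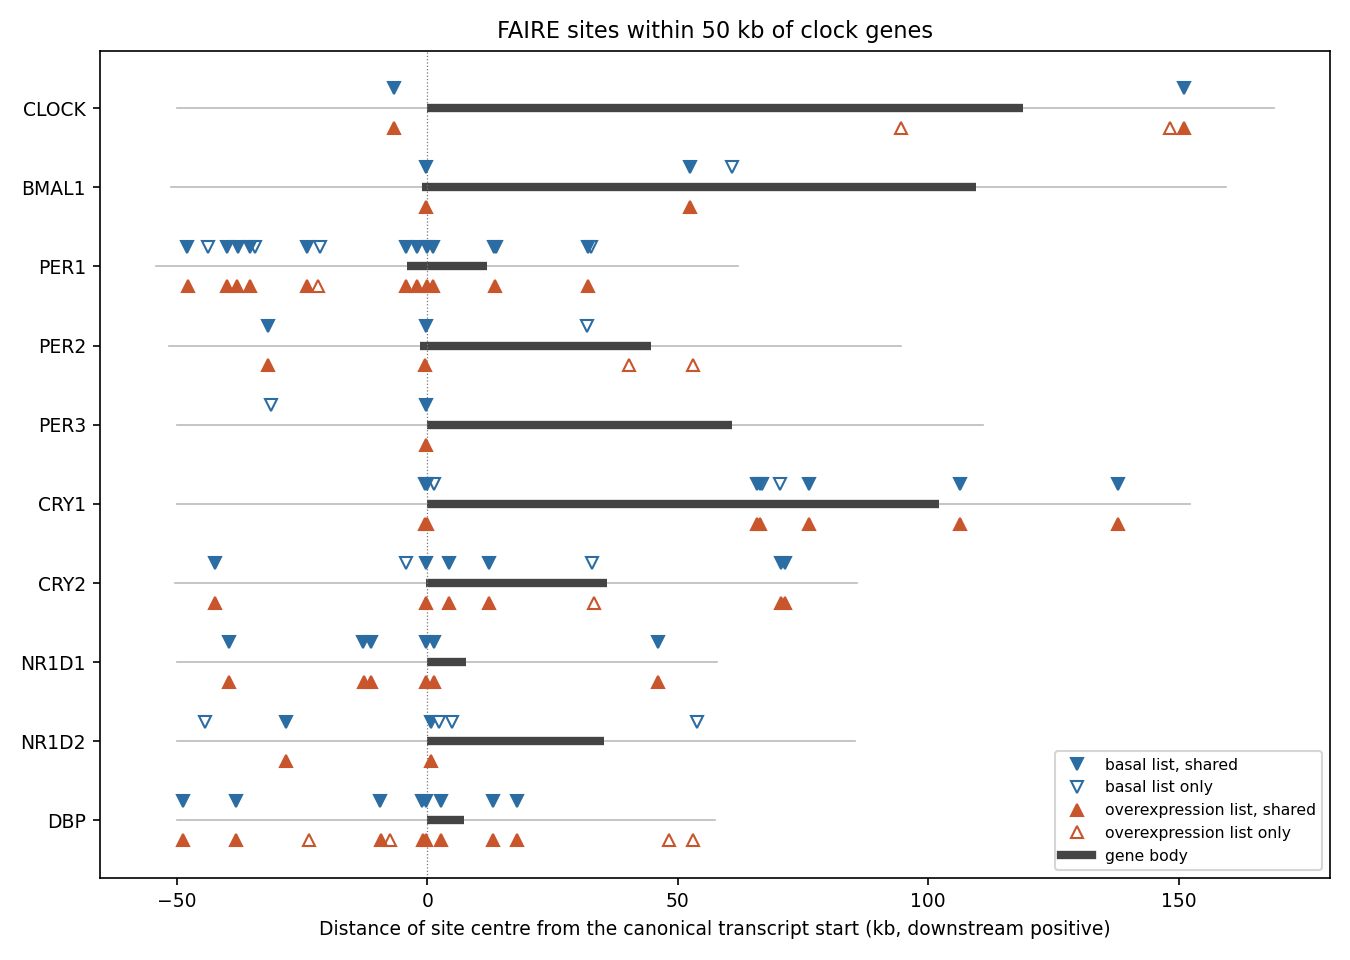
FAIRE sites at the 10 clock genes by the distance of the site centre from the canonical transcript start (x axis, kb, downstream positive), with the gene body as a dark bar and the 50 kb windows as thin lines. Triangles above each line are sites of the basal list, those below are sites of the overexpression list, and open triangles are sites called in 1 list only. Filled triangles from both lists stand at or near the start of every gene but CLOCK, whose nearest site is 6724 bp upstream.

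Taken as a whole, the clock sites were wider and richer in G and C than all sites. The median width was 299 bp in both lists, against 249 bp over all sites, with a range of 99 to 699 bp at basal SF-1 and of 149 to 649 bp with overexpression. The median GC content was 59.5% and 60.7%, against 45.4% and 49.9% over all sites. At promoters the median width was 349 bp in the basal list and 374 bp in the overexpression list, with a median place of 13.9% and 7.91%. The median GC content there was 67.3% and 68.2%. Sites in the gene body outside promoters came later, at a median place of 41.5% and 55.8%. Their median width was 299 and 249 bp, and their median GC content of 43.8% and 48.6% lay below that of all sites. Sites outside the gene had median widths of 249 and 299 bp and a GC content of 58.6% and 59.4%. The comparison with all sites was not matched for nearness to a start.

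CLOCK and BMAL1, the activators, had fewer sites per length of window than the median protein-coding gene in both lists. By this measure CLOCK lay above 27.3% of these genes at basal SF-1 and above 49.5% with overexpression. BMAL1 lay above 38.3% and 30.2%. This was not particular to the activators, since PER3 lay above 35.1% and 18.8%. CLOCK had 2 basal and 4 overexpression sites. A site 6724 bp upstream of its start was called in both conditions, 399 bp wide and at 9.86% of the basal list, and 299 bp wide and at 7.69% of the overexpression list. The other shared site, 449 bp wide at basal SF-1 and 149 bp wide with overexpression, lay at the start of the neighbour TMEM165 and stood at 25.7% and 86.5% of the lists. The overexpression-only sites were 1 of 249 bp in intron 15 of CLOCK (chr4:56318351-56318599, place 39.4%) and 1 of 199 bp near TMEM165. None of the motifs was found in a CLOCK site, apart from the core AGGTCA in 1 site of each list.

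BMAL1 had 3 basal and 2 overexpression sites, all within 1 kb of a start or in intron 3. At the promoter the site was 499 bp wide in the basal list (chr11:13298901-13299399) and 399 bp wide in the overexpression list (chr11:13298851-13299249), at nearly the same place of 16.3% and 16.4%. The ROR element shown above lies 31 bp downstream of the canonical start in the 5′ UTR and thus inside the basal site, whereas the overexpression site ended before it. Only the edge of the called site differed there. Of the intron 3 sites, that at chr11:13351601-13351899 was 299 bp wide in both lists (places 38.1% and 47.1%), and that at chr11:13360001-13360199 was basal-only, 199 bp wide and late in the list at 84.6%.

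PER1, a repressor of the loop that also responds acutely to cAMP and glucocorticoids, had the most sites, 16 at basal SF-1 and 12 with overexpression. Per length of its window this was 13.8 and 10.3 sites per 100 kb, above 99.9% and 99.2% of protein-coding genes, whose median was 1.89 and 1.84. Its window is crowded with other genes, and 3 of the basal and 2 of the overexpression sites lay at the starts of ALOXE3, TMEM107 or BORCS6.

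The widest PER1 site covered the distal start of the gene (chr17:8059551-8060249, 699 bp at basal SF-1, and chr17:8059601-8060249, 649 bp with overexpression). It came at 0.232% of the basal list and 1.62% of the overexpression list and held 2 E-boxes. At the canonical start a site of 349 bp was called in both lists (chr17:8055651-8055999, place 7.68%, and chr17:8055601-8055949, place 3.72%) with 1 E-box 170 bp upstream of the start. Another promoter site lay in intron 1 (chr17:8054501-8054699) with the same edges in both lists, at 49.4% and 73.1%. Between the starts, an intronic site of the longer transcripts was 299 bp wide at basal SF-1 (chr17:8057601-8057899, place 10.7%) and 199 bp wide with overexpression (chr17:8057651-8057849, place 33.4%). It held a CRE (TGACGTCA, the cAMP response element) in the basal list, which the overexpression site missed by 1 bp at its edge. PER1 thus had a run of 4 shared sites over its 5′ end.

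Farther out, the 4 basal-only sites of PER1 were 149 to 299 bp wide and lay 21478, 34453 and 43728 bp upstream and 32622 bp downstream of the canonical start. That at 43728 bp upstream (chr17:8099351-8099549, 199 bp, place 47.0%) held the SF-1 half-site shown above. The overexpression-only site was 149 bp wide and late in the list (chr17:8077501-8077649, place 87.0%). It lay within TMEM107, with 151 bp between it and a basal-only site. A shared site 39953 bp upstream held 2 ROR half-sites and an E-box in both lists. The E-box overlaps 1 of the ROR half-sites there, and the places were 84.8% and 32.6%. The narrowest clock site, 99 bp at the start of TMEM107, was 249 bp wide in the overexpression list, with places of 95.3% and 47.0%.

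PER2 and PER3, the other period repressors, had single promoter sites. At PER2 the promoter site was 349 bp wide in the basal list (chr2:239197401-239197749, place 36.6%) and 249 bp wide in the overexpression list (chr2:239197551-239197799, place 45.8%). Both held the D-box 324 bp upstream of the canonical start. A basal-only site in intron 17 (chr2:239165251-239165499, 249 bp, place 34.2%) held another D-box, of the form TTACGTAA. The overexpression-only sites were 1 of 149 bp in intron 22 (place 94.1%) and 1 of 299 bp downstream of the gene (place 37.7%), neither with a motif. The other shared site of the window lay at the start of TRAF3IP1.

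At PER3 the promoter site was 399 bp wide in the basal list (chr1:7843901-7844299, place 65.0%) and 249 bp wide in the overexpression list (chr1:7843951-7844199, place 55.9%). The basal site held 2 E-boxes and 1 D-box and the overexpression site 1 of the E-boxes and the D-box, because its upstream edge lay 50 bp farther in. A basal-only site of 149 bp, 31276 bp upstream and inside CAMTA1, was the only other site of PER3. The PER3 window had 1.24 and 0.622 sites per 100 kb, below the median of protein-coding genes in both lists.

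CRY1, a cryptochrome repressor, had 10 basal and 7 overexpression sites. All of the latter were shared, which allows an overexpression-only share of up to 41.0%, beside 40.3% over all sites. The CRY1 promoter held a 149 bp site over the start with the same edges in both lists (chr12:107487251-107487399, places 84.8% and 80.4%). Beside it lay an upstream site of 299 bp in the basal list (chr12:107487551-107487849, place 17.1%) and of 349 bp in the overexpression list (chr12:107487551-107487899, place 5.01%). Neither held any of the motifs searched. The introns of CRY1 held the other motifs. The site with the pair of ROR elements was 349 bp wide at basal SF-1 (chr12:107421301-107421649, place 45.9%) and 199 bp wide with overexpression (place 84.0%), with both elements inside either site. The site with the SF-1 half-site in intron 2 had the same edges in both lists (chr12:107410951-107411249, 299 bp) and stood at 35.1% and 67.4%. A further intron 1 site at chr12:107420751-107420899 was shared.

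The 3 basal-only sites of CRY1 all lay in intron 1 (chr12:107416851-107417099, 107420351-107420549 and 107485851-107486149) and were 249, 199 and 299 bp wide. That at 107420351 held 1 ROR half-site without the A/T-rich stretch. None of the 3 came in the first 10% of the list, their places being 64.8%, 78.6% and 36.5%. The downstream sites of the window lay at the starts of TMEM263 and MTERF2 and came earlier with overexpression, at 60.7% and 4.09% for TMEM263 and at 67.3% and 13.0% for MTERF2.

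CRY2, the other cryptochrome, had 8 basal and 7 overexpression sites. The site at its first start had the same edges in both lists (chr11:45868651-45869049, 399 bp), came at 6.84% and 1.55%, and held a ROR half-site (TAGGTCA) 62 bp upstream of the canonical start. The site near the internal start in intron 3, 249 bp wide in both lists, held an E-box and stood at 32.5% and 77.7%. A site in intron 1 (chr11:45873351-45873549) was shared with the same edges. The widest and the narrowest basal sites, 499 and 149 bp, lay downstream at starts of PEX16. They were 399 and 199 bp wide in the overexpression list and stood at 7.21% and 23.3%, and at 63.1% and 60.3%. In intron 11 each list had a site of its own, and these lay with 101 bp between them. The basal-only one (chr11:45901651-45901999, 349 bp, place 44.0%) held a ROR half-site, and the overexpression-only one (chr11:45902101-45902349, 249 bp, place 47.7%) held an E-box. A basal-only site of 299 bp, 4176 bp upstream of the canonical start, came at 12.1% of the list and was the earliest condition-only site at any clock gene.

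NR1D1, the gene of the REV-ERB alpha repressor, had 6 sites in each list and all were shared. This allows a condition-only share of up to 45.9% in either list, which holds the 45.8% and 40.3% over all sites. The NR1D1 promoter site had the same edges in both lists (chr17:38256801-38257299, 499 bp) and came at 2.97% and 7.11%. None of the motifs was found in it. They stood instead in the intron 1 site (chr17:38255301-38255749, 449 bp, place 4.35%, and chr17:38255301-38255799, 499 bp, place 3.04%), which held 3 E-boxes and 1 D-box in either list and ended just outside the 1 kb limit for promoter sites. A site 11258 bp upstream held 2 ROR half-sites of the form TGGGTCA in both lists (places 44.9% and 49.8%). A site 12783 bp upstream, 249 bp wide at basal SF-1 and 449 bp with overexpression, held an E-box. The other sites of the window lay at the starts of MED24 and CASC3 and were 199 bp wide with overexpression, the narrowest of NR1D1 there.

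NR1D2, the gene of REV-ERB beta, had 6 basal and 2 overexpression sites, and 4 of the basal ones were basal-only (66.7%, interval 22.3 to 95.7%), beside 45.8% over all sites, which the interval holds. Its promoter site, which also lies within 1 kb of an annotated start of NKIRAS1, was 449 bp wide at basal SF-1 (chr3:23987251-23987699, place 6.55%) and 599 bp wide with overexpression (chr3:23987251-23987849, place 4.11%). It held 3 E-boxes, 1 D-box and 1 ROR element in both lists, more kinds of clock motif than any other clock site. The other shared site, 199 bp wide at basal SF-1 and 249 bp with overexpression, lay at the starts of NKIRAS1 and RPL15. All 4 basal-only sites came between 30.9% and 48.0% of the list. Of these, 2 lay in intron 1, namely chr3:23988951-23989249 (299 bp, with an E-box) and chr3:23991401-23991899 (499 bp). The latter was the widest condition-only site at any clock gene. The others lay 44352 bp upstream, inside NKIRAS1, and 53823 bp downstream of the start.

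DBP, the D-box activator of clock output, was the only gene besides CLOCK and PER2 with more sites in the overexpression list, 12 against 8. The earliest clock site of both lists covered its start (chr19:49140601-49141199, 599 bp, place 0.128%, and chr19:49140601-49141249, 649 bp, place 0.122%), as peak 44 of the basal list and peak 38 of the overexpression list. It held both DBP ROR elements. Another promoter site lay 989 bp upstream of the start in the basal list (349 bp, place 4.75%) and 939 bp upstream in the overexpression list (449 bp, place 33.1%), at an annotated start of CA11. The third covered an internal start in intron 2 (chr19:49137701-49137999, 299 bp, place 13.9%, and chr19:49137701-49138049, 349 bp, place 8.71%) and held 2 E-boxes. All 8 basal sites of DBP were shared, and the narrowest, 249 bp, lay 38189 and 48789 bp upstream.

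Of the DBP sites in the overexpression list 33.3% were overexpression-only (interval 9.92 to 65.1%), beside 40.3% over all sites, which the interval holds. In the basal list none was basal-only, with an upper limit of 36.9% against 45.8% over all sites. The 4 overexpression-only sites of DBP were 149 to 399 bp wide. They lay 7539 and 23664 bp upstream and 48286 and 52961 bp downstream of the start, at places of 31.3% to 85.8%, and held no motif. The downstream ones lay inside SULT2B1 and the nearer upstream one inside CA11. A shared site 48789 bp upstream was wider in the overexpression list, and only its overexpression form reached a ROR half-site. DBP had 7.45 and 11.2 sites per 100 kb, above 97.2% and 99.6% of protein-coding genes, and with PER1 it was the most densely covered of the 10. The plot of site numbers shows both genes beside the others.

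**Figure D2:**
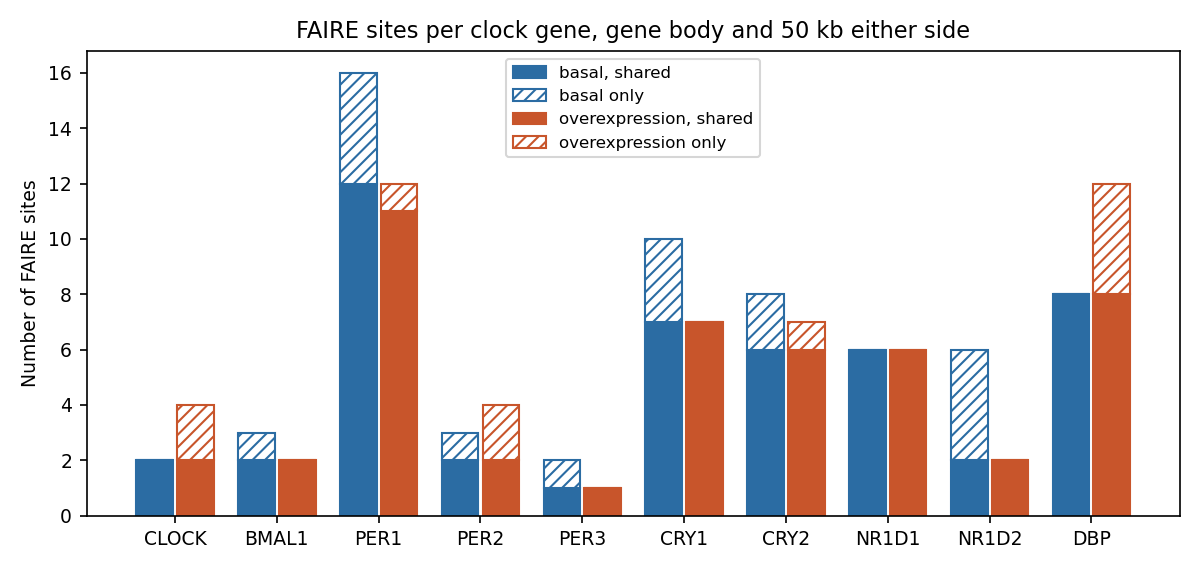
Number of FAIRE sites per clock gene (y axis) in the gene body and 50 kb on either side, with the basal list in blue and the overexpression list in orange and the condition-only sites hatched on top of the shared ones. PER1 had 16 and 12 sites and DBP 8 and 12, NR1D1 had only shared sites, and NR1D2 had 4 basal-only sites.

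For the sites called in both conditions, the place in the list was compared. Overlaps gave 48 pairs, since 2 basal sites downstream of PER1 fell into 1 overexpression site. Of these, 24 came earlier in the overexpression list and 24 later. The median shift was 0.0716 points of list length, against 0.902 points over all 18704 overlapping pairs, with quartiles of -6.99 and 14.7 points at clock genes and of -11.2 and 15.8 points over all pairs. The shared clock sites were wider with overexpression in 22 pairs, narrower in 14 and of the same width in 12. Over all pairs 36.2% were wider and 37.3% narrower. At the promoters 8 pairs came earlier and 7 later, with a median shift of -0.0061 points. The places thus show no common direction of the clock sites between the libraries. Of the 33 pairs away from clock promoters, 17 were wider and 10 narrower with overexpression, and of the 15 promoter pairs 5 and 4. This difference in width was not tested.

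**Figure D3:**
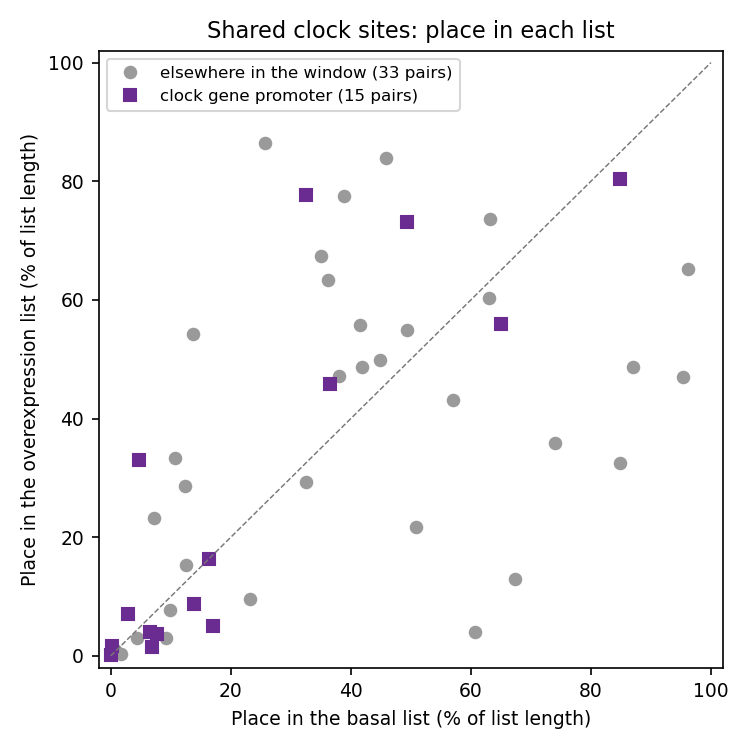
Place of the 48 shared site pairs in the basal list (x axis) and the overexpression list (y axis), as a percentage of list length, where low values are early in the list. Squares are the 15 pairs at clock gene promoters, circles the other 33, and the dashed line marks equal places. The pairs lie on both sides of the line, and 24 of the 48 were earlier with overexpression.

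The motifs were then counted over all clock sites on both strands. The SF-1 half-site was found in 2 of 64 basal sites (3.12%, interval 0.381 to 10.8%) and in 1 of 57 overexpression sites (1.75%, interval 0.0444 to 9.39%). Over all sites of both lists 12.7% held it, and among all sites of the same widths it was 14.0% at basal SF-1 and 13.4% with overexpression. Sites at coding gene starts held it less often, and among sites of the same widths and the same class (at a start or not) the shares were 11.3% and 11.9%. None of the 15 basal and 14 overexpression sites at clock promoters held it (upper limits 21.8% and 23.2%), where 4.79% and 5.13% of promoter sites of the same widths did. Clock sites thus carried the SF-1 half-site rarely within 50 kb. So did the sequence of equal length starting 1 kb beyond either end of the sites, with 1.24% of 242 stretches over both lists. The rarity is therefore not particular to the called sites. With a window of 100 kb the share over both lists rose from 2.48% to 7.23%. The core AGGTCA was found in 10 basal and 6 overexpression clock sites (15.6% and 10.5%), against 23.3% and 24.2% of sites of the same widths. It was counted also where it is part of a ROR or SF-1 half-site, so these counts overlap with those of the half-sites.

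The ROR half-site stood in 9 basal sites (14.1%, interval 6.64 to 25.0%) and 7 overexpression sites (12.3%, interval 5.08 to 23.7%). These lay at 7 and 6 of the 10 genes, a count that was not made over all genes and so has no background. Over all sites of both lists the share of sites was 6.17%, and among sites of the same widths 7.17% and 6.80%, within both intervals. Among sites of the same widths and class it was 6.26% and 6.41%, of which the former lies below its interval and the latter within it. At the clock promoters the half-site stood in 4 of 15 basal sites (26.7%, interval 7.79 to 55.1%) and 3 of 14 overexpression sites (21.4%, interval 4.66 to 50.8%), against 5.13% and 6.02% of promoter sites of the same widths. The full ROR element stood in 4 basal sites (6.25%, interval 1.73 to 15.2%) and 3 overexpression sites (5.26%, interval 1.10 to 14.6%), against 0.981% over all sites of both lists and 1.06% and 0.812% in those of the same widths and class. At the clock promoters it stood in 3 of 15 basal sites (interval 4.33 to 48.1%) and 2 of 14 overexpression sites (interval 1.78 to 42.8%), against 0.614% and 0.836% of promoter sites of the same widths. The sequence of equal length starting 1 kb beyond either end of the clock sites held the ROR half-site in 5.79% and the full element in 1.24% of 242 stretches, counted over both lists. Every full element includes a ROR half-site, so these counts overlap. The elements at BMAL1, CRY1, NR1D2 and DBP are those printed above.

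E-boxes stood in 12 basal sites (18.8%, interval 10.1 to 30.5%) and 12 overexpression sites (21.1%, interval 11.4 to 33.9%), against 5.67% over all sites of both lists. Among sites of the same widths and class the share was 8.04% and 8.32%, below both intervals. The clock sites with an E-box include, in both lists, a site at the start of BORCS6 (PER1 window) and another at that of SLC35C1 (CRY2 window). At the clock promoters E-boxes stood in 6 of 15 basal sites (40.0%, interval 16.3 to 67.7%) and 5 of 14 overexpression sites (35.7%, interval 12.8 to 64.9%), against 14.4% and 13.8% of promoter sites of the same widths, of which the latter is within its interval. The D-box stood in 5 basal sites (7.81%, interval 2.59 to 17.3%) and 4 overexpression sites (7.02%, interval 1.95 to 17.0%), against 1.34% over all sites of both lists and 1.33% and 1.25% in sites of the same widths and class. At promoters it was in 3 sites of each list, at PER2, PER3 and NR1D2. The motif counts of the lists are not independent, since most sites are shared. GC content, which was higher at clock sites, was not matched in these comparisons and its part was not tested.

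Merged where they overlap, the sites of both lists formed 73 loci, of which 47 had a site in both lists, 16 only in the basal list and 10 only in the overexpression list. SF-1 half-sites were in 2 loci, ROR half-sites in 10, full ROR elements in 4, E-boxes in 13 and D-boxes in 5. A full ROR element, an E-box or a D-box was found in 18 loci at 9 of the genes, all but CLOCK, and in 9 of the 15 promoter loci at 7 genes. The same count was not made over all loci or all genes, so these numbers have no background and only describe the clock loci. As a comparison by gene alone, the RefSeq promoter windows (GRCh38, 300 bases around each start, mostly before it) were searched, and all 10 genes were matched. In these shorter windows a full ROR element stood only at BMAL1, an E-box only at PER1 and D-boxes at PER2 and PER3, against 0.289%, 7.43% and 1.05% of 27305 promoters. The E-boxes of the other 5 genes and the full ROR elements of the other 3 lay outside that window, in introns or farther upstream. The plot of motif shares sets the clock sites beside sites of the same widths.

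**Figure D4:**
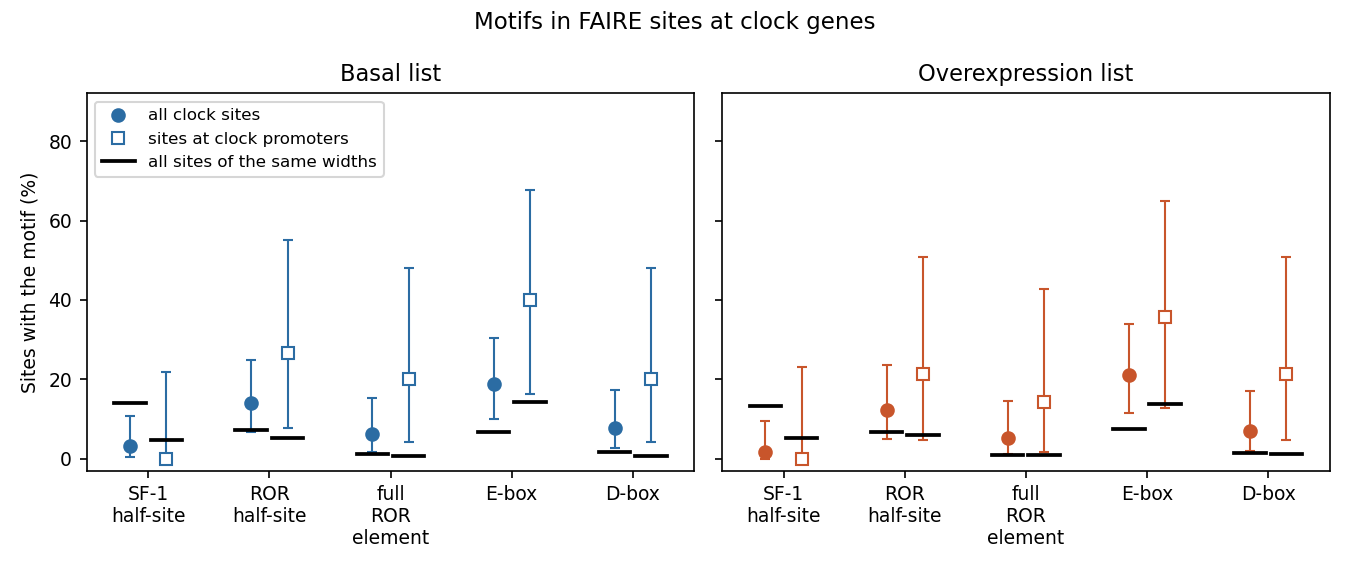
Share of FAIRE sites with each motif (y axis, %) in the basal list (left) and the overexpression list (right). Circles are all clock sites (64 and 57), open squares the sites at clock promoters (15 and 14), error bars exact 95% intervals, and black lines the share among all sites, or all sites at protein-coding gene starts, of the same widths. SF-1 half-sites lie below their line in both lists, and ROR half-sites, full ROR elements, E-boxes and D-boxes lie above it.

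A further 16 genes tied to the clock were counted by promoter site alone. Of these, 9 had one in the basal list, 11 in the overexpression list and 8 in both, beside 46.7%, 48.9% and 41.7% of all protein-coding genes. RORA and RORB, activating receptors of ROR elements, had none in either list, nor had BMAL2 and CSNK1E. NPAS2, a CLOCK paralogue, had a site in the basal list alone (chr2:101435501-101435849, 349 bp, place 44.3%), with an E-box and a full ROR element. In the overexpression list alone, promoter sites were called at NFIL3, HLF and CSNK1D, at places between 53.2% and 86.9% of the list. NFIL3 encodes a repressor that competes at D-boxes, HLF a D-box activator related to DBP, and CSNK1D a kinase of PER proteins. TEF, BHLHE40, BHLHE41, CIART, CIPC, TIMELESS, BTRC and FBXW11 had promoter sites in both lists. That of CIART, a repressor of the CLOCK and BMAL1 dimer, came at 0.105% of the basal and 0.644% of the overexpression list and held an E-box in both.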

How the data were processed

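The series held 4 samples, 1 FAIRE library and 1 input DNA library at each SF-1 dosage. Samples were grouped per the labels. Only the FAIRE site lists were used, and the input libraries were not analysed here. The authors deposited a score of 1000 with all sites, which was not used, so site width and peak number served in its place. The submitters' processing notes name hg19 and CASAVA 1.8. The peak caller and threshold of the FAIRE lists are not given in the sources used here. Starts lie on a 50 bp grid and are printed 1-based.

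Sites were joined to GENCODE release 44 mapped to GRCh37. Introns and exons are numbered on the canonical transcript. Sites were called shared when they overlapped by at least 1 bp. Both strands of each site were read for the motifs in Python 3.11.15 with pysam 0.24.0, and intervals came from SciPy 1.17.1. Overlap and motif search were tested on simulated sites. The members, motifs and gene lists were chosen with earlier results of these data known. The text names every member site at a promoter, in the gene body, condition-only, or with an SF-1 or ROR half-site, the widest, narrowest and earliest of each gene, annotated neighbours, and 16 further clock genes. A few items of the gene list are not reported here. Where sites of little note would repeat these values, they are given by range and count. Other windows, list lengths, overlap rules, promoter widths and motif windows were tried.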

Additional observations from a re-analysis of the deposited data

How the results depend on the processing

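Each condition had 1 library, so no replicate was left out, and the depth behind each list is unknown. No paired analysis was possible because the results come from no test. Of 56 alternatives over 8 results, 46 stayed within the limits set for a change and 10 moved. The number of genes with a promoter site stayed at 8 or 9 in each list under all alternatives tried for it.

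The number of clock sites depends on the window by construction. It was 37 at basal SF-1 and 32 with overexpression for a window of 10 kb, and 27 and 22 in the gene body alone. The first 50% of the overexpression list held 36. The condition-only share with the first 50% of each list was 44.4% (basal) and 30.6% (overexpression), where a partner in the later part of the other list no longer counts. The share with an SF-1 half-site was 7.23% with a window of 100 kb, and that with a ROR half-site was 22.4% in the gene body alone and 5.79% in flanks. The cause of these last differences was not tested.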
